A study of Mus musculus with 48 samples.

Results

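Plk2 and Plk3 encode 2 of the polo-like kinases, serine/threonine kinases that carry a catalytic domain near the amino terminus and polo boxes, which bind phosphorylated partner proteins, near the carboxy terminus. Their messages were followed in mouse embryonic fibroblasts with and without Zfp36, which encodes tristetraprolin (TTP). They are 2 of the 18193 genes to which the arrays have a probe set with a single symbol. All probe sets annotated to Plk2 or Plk3 alone were taken, which gave 3 of the 45037 probe sets left after controls were removed. Plk2 has 1427005_at and 1443780_at, and Plk3 has 1434496_at. Of these, 1427005_at and 1434496_at were among the 27500 probe sets that exceeded the median of their array in 4 or more arrays, and 1443780_at was not. The pair was chosen for its signals in these same arrays, so its levels, slopes and differences between the lines are given as a description, with errors and without p-values.

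Plk2 and Plk3 are known as immediate-early genes: serum and growth factors raise their messages within minutes in resting fibroblasts, and the messages are short-lived. Plk2 acts in centriole duplication and in the control of synapses, and is a known target of p53. Plk3 acts in responses to DNA damage and other stress, and has been linked to S-phase entry. TTP binds AU-rich elements in 3′ untranslated regions and recruits the enzymes that remove the poly(A) tail, so that its target messages are degraded faster. When transcription is blocked with actinomycin D, the fall of a message's signal over time follows its decay.

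The arrays came from fibroblasts of E14.5 littermate embryos, strain 129/B6, either Zfp36 +/+ (WT) or Zfp36 -/- (KO), and by the labels apparently from 1 line of each. All cells were kept for 16 h in 0.5% serum and then given 10% serum for 90 min, so that every group had been stimulated. Serum-deprived samples are not analysed here. Actinomycin D was then added, at 5 ug/ml by the series text and 0.5 ug/ml by the sample names, and cells were taken at 0, 30, 60, 90 and 120 min, each sample being 3 combined dishes of 100 mm. There were 5 such experiments, each on its own day and with WT and KO in parallel, and replicate numbers are those of the experiments. This gave 25 WT and 23 KO arrays, with 5 arrays in each of the 10 groups except KO at 0 min, which lacks experiment 5, and KO at 60 min, which lacks experiment 4. If there was 1 line per genotype, the genotype and the line cannot be told apart, and the spread between experiments would not cover the spread between lines or embryos.

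The promoters of both genes are shown because these are the genes that serum switches on and actinomycin D silences, and because the sequence lets the 2 loci be set side by side. Plk2 lies on the plus strand at chr13:110395044-110400844 and Plk3 on the minus strand at chr4:117128655-117133963 (RefSeq, GRCm38.p6). Both genes were found in the RefSeq promoter table, and the 150 bases before each start are printed 5′ to 3′ on the strand of the gene, at chr13:110394894-110395043 (plus) and chr4:117133964-117134113 (minus). Capitals mark TGACG, the core of the cyclic AMP response element, on either strand.
Plk2: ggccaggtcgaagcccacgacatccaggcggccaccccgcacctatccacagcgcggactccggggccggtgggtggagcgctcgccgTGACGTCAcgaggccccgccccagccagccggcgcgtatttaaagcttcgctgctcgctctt
Plk3: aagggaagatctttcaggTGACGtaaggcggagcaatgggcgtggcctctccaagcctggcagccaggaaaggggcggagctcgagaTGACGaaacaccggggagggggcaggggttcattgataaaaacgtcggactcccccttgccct

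The full palindrome TGACGTCA, which holds TGACG on both strands, lay in the Plk2 promoter with its first base at -62 relative to the start, and was found on either strand in 508 (1.55%) of 32817 RefSeq promoters searched over 250 bases before the start. Plk3 held no full palindrome but TGACG at -132 and -63, each on its own strand. TGACG occurs in 17.7% of the promoters. GGGCGG, the GC box, was found once in Plk3 at -78, and in Plk2 at -230 and -47 on the opposite strand, against 32.7% of promoters with a match. TATAAA (12.4% of promoters), CCAAT (33.8%), the CArG box (1.47%) and the p53 response element decamer (7.12%) had no match in the 250 bases of either gene, searched on both strands. These matches describe the letters of the window and are not binding data.

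The values are log2 signals as deposited. On the arrays the 5th percentile lay between 8.02 and 8.13, the median between 8.47 and 8.56 and the 95th percentile between 10.33 and 10.49, so a signal that ends near 8 is compressed at the floor. Of the 11 fibroblast markers, 10 had a mean above every array's median, with Vim highest at 13.16 and Thy1 at the floor (8.10). Of markers of other cell types, 1 of 6 epithelial, 2 of 6 muscle, 0 of 5 endothelial, 1 of 6 macrophage and blood, and 4 of 6 neural genes had such a mean, with the neural genes Map2 at 10.21 and Tubb3 at 9.31. None of these markers that passed the filter (10 fibroblast, 3 epithelial, 3 muscle, 1 endothelial, 3 macrophage and blood, 5 neural) was called for a slope difference in limma, while 1 fibroblast, 1 muscle and 1 macrophage and blood marker had an unadjusted p under 0.05. At 0 min Zfp36 itself had a signal of 9.86 ± 0.16 in the WT arrays (SD, n = 5) and 9.51 ± 0.16 in the KO arrays (SD, n = 4). The sources used here do not say whether its probe set lies in the disrupted part of the gene, so it does not check the genotype.

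Plk2 had a high signal in both lines after serum and fell in both under actinomycin D, more steeply in WT. From 0 to 120 min it fell by 2.29 on the log2 scale in WT (SE 0.12, a 4.90-fold fall) and fell by 1.45 in KO (SE 0.12, a 2.74-fold fall). The lines started close together, with KO slightly lower, and crossed between 30 and 60 min. By 120 min the KO signal of Plk2 was 1.53-fold that of WT. In such whole-culture RNA, fewer cells with the message and less message per cell cannot be told apart.

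At 0 min the log2 signal of Plk2 was 11.50, 11.49, 11.38, 11.58 and 11.19 in WT experiments 1 to 5, and 11.24, 11.14, 11.19 and 11.23 in KO experiments 1 to 4. The ranges overlapped, because WT experiment 5, which has no KO partner at 0 min, was as low as the KO arrays. At 30 min the signal was 10.92, 11.14, 11.16, 11.01 and 10.65 in WT and 10.92, 10.91, 10.91, 10.93 and 10.55 in KO, in the order of the experiments, and the lines overlapped again. At 60 min it was 10.27, 10.30, 10.13, 9.60 and 9.69 in WT and, in experiments 1, 2, 3 and 5, 10.65, 10.28, 10.23 and 10.23 in KO. WT experiments 4 and 5 were by then lower than WT experiments 1 to 3, and the KO array of experiment 1 was higher than the other KO arrays.

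At 90 min the Plk2 signal was 9.36, 9.36, 9.52, 9.11 and 9.22 in WT and 10.12, 9.94, 9.62, 10.04 and 9.88 in KO. At 120 min it was 9.05, 9.25, 9.29, 9.10 and 8.98 in WT and 9.87, 9.80, 9.45, 9.93 and 9.69 in KO. At both times every KO array lay above every WT array, which also held for 9.99% of the 27500 probe sets at 90 min and 12.7% at 120 min. Experiment 3 brought the lines closest, with the highest WT and the lowest KO value at each of these times.

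**Figure D1:**
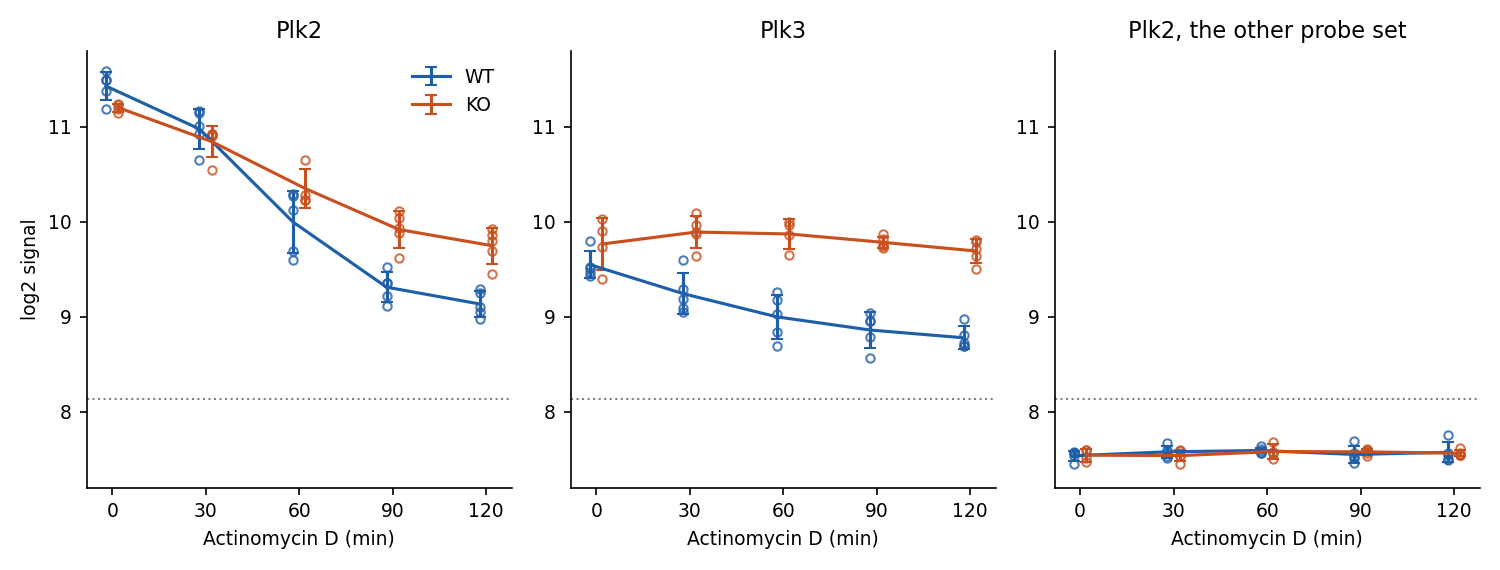
Log2 signal (vertical axis) of the probe sets of Plk2 and Plk3 against time in actinomycin D (horizontal axis, min) in WT and KO, with 1 point per array, a line through the group means, bars of 1 SD and a dotted line at 8.13, the highest 5th percentile of an array. Plk2 fell from 11.43 to 9.13 in WT and from 11.20 to 9.75 in KO; Plk3 fell from 9.55 to 8.78 in WT and was 9.77 and 9.69 in KO at the first and last times; the second Plk2 probe set lay below the floor throughout.

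As group means, Plk2 was 11.43 ± 0.15, 10.98 ± 0.21, 10.00 ± 0.33, 9.31 ± 0.16 and 9.13 ± 0.13 in WT from 0 to 120 min (SD, n = 5 each). In KO it was 11.20 ± 0.044 (n = 4), 10.84 ± 0.17 (n = 5), 10.35 ± 0.20 (n = 4), 9.92 ± 0.19 (n = 5) and 9.75 ± 0.19 (n = 5). Ordered by mean, the groups ran WT 0, KO 0, WT 30, KO 30, KO 60, WT 60, KO 90, KO 120, WT 90 and WT 120 min. The array ranges of all 9 pairs of neighbours in this order overlapped. For 3 of them, WT 30 with KO 30, WT 60 with KO 90 and KO 90 with KO 120 min, the step was also smaller than the larger of the SDs.

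The fall of Plk2 was not even over time. In WT its mean changed by -0.45 in the first 30 min, by -0.98 between 30 and 60 min, by -0.69 between 60 and 90 min and by -0.18 in the last 30 min. In KO the same steps were -0.36, -0.49, -0.43 and -0.17. The lines thus differed less in their first and last steps than in the 2 between 30 and 90 min. The KO means at 0 and 60 min each lack an experiment, so these steps do not compare the same experiments throughout. Experiment 5, absent from KO at 0 min, was the lowest KO array at 30 min (10.55 against 10.91 to 10.93). Relative to its own 0 min, the signal that remained at 30, 60, 90 and 120 min was 73.1%, 37.1%, 23.1% and 20.4% in WT and 78.0%, 55.4%, 41.1% and 36.5% in KO.

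A straight line through all 5 times gave Plk2 a WT slope of -1.25 ± 0.062 log2 per h and a KO slope of -0.76 ± 0.065 (SE), which corresponds to a halving in 48 min and 78.5 min. KO minus WT, the slopes differed by 0.49 ± 0.090. Within single experiments the WT slopes of Plk2 were -1.29, -1.25, -1.16, -1.37 and -1.17, and the KO slopes -0.71, -0.73, -0.95, -0.70 and -0.58, the last 2 from 4 times each. Every KO slope was less steep than every WT slope. The differences were 0.58, 0.52, 0.21, 0.67 and 0.59, so experiment 3 gave less than the other 4.

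Set against each other within experiments, Plk2 started lower in KO and ended higher. At 0 min KO minus WT was -0.26, -0.35, -0.19 and -0.35 in experiments 1 to 4, below 0 in 4 of 4, with a mean of -0.29 ± 0.076 (SD). With the experiment as a block the fitted difference at 0 min was -0.27 ± 0.11 (SE), and without the block it was -0.23 ± 0.12. At 30 min it was 0.0020, -0.23, -0.25, -0.078 and -0.11, and at 60 min 0.38, -0.011, 0.11 and 0.54 in experiments 1, 2, 3 and 5. At 90 min it was 0.76, 0.58, 0.097, 0.93 and 0.66 and at 120 min 0.81, 0.56, 0.16, 0.82 and 0.72, above 0 in 5 of 5 at both times.

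Plk3 fell in WT, while its change in KO was small and differed between experiments. From 0 to 120 min it fell by 0.77 on the log2 scale in WT (SE 0.11, a 1.71-fold fall) and its change in KO was -0.075 (SE 0.11), smaller than its error. That change ran from -0.20 without replicate 3 to -0.011 without replicate 2. It was 0.050 (SE 0.12) in experiments 1 to 3 and -0.33 in experiments 4 and 5, where only experiment 4 has a KO array at 0 min. From 0 to 120 min KO experiments 1 to 3 went from 9.74 to 9.81, from 10.03 to 9.79 and from 9.39 to 9.71. KO experiment 4 went from 9.91 to 9.64. Experiments 1 to 3 thus did not move together, and experiment 2 fell as experiment 4 did. The lines overlapped at 0 min and were apart at every later time, and by 120 min the KO signal of Plk3 was 1.88-fold that of WT.

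At 0 min the log2 signal of Plk3 was 9.52, 9.80, 9.53, 9.43 and 9.47 in WT experiments 1 to 5 and 9.74, 10.03, 9.39 and 9.91 in KO experiments 1 to 4. KO experiment 3 was the lowest of these 9 arrays, and WT experiment 2 stood above the other WT arrays. At 30 min the signal was 9.29, 9.59, 9.19, 9.05 and 9.10 in WT and 9.89, 10.09, 9.87, 9.96 and 9.64 in KO. At 60 min it was 9.03, 9.17, 9.26, 8.69 and 8.84 in WT and, in experiments 1, 2, 3 and 5, 9.87, 9.97, 10.00 and 9.66 in KO. From 30 min on no WT array reached the lowest KO array.

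At 90 min the Plk3 signal was 8.96, 8.96, 9.04, 8.57 and 8.79 in WT and 9.76, 9.87, 9.75, 9.82 and 9.73 in KO. At 120 min it was 8.72, 8.81, 8.98, 8.69 and 8.69 in WT and 9.81, 9.79, 9.71, 9.64 and 9.51 in KO. Every KO array was above every WT array at both times, as at 30 and 60 min. That pattern was shared by 8.93% of all probe sets tested at 30 min and 9.81% at 60 min.

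The group means of Plk3 were 9.55 ± 0.15, 9.24 ± 0.22, 9.0 ± 0.23, 8.86 ± 0.19 and 8.78 ± 0.12 in WT (SD, n = 5 each). In KO they were 9.77 ± 0.28 (n = 4), 9.89 ± 0.16 (n = 5), 9.87 ± 0.16 (n = 4), 9.78 ± 0.059 (n = 5) and 9.69 ± 0.12 (n = 5). All 5 KO groups had a higher mean than all 5 WT groups, in the order KO 30, 60, 90, 0 and 120 min and then WT 0, 30, 60, 90 and 120 min. Every pair of neighbours overlapped in its arrays, and the step exceeded the larger SD only from WT 0 to WT 30 and from WT 30 to WT 60 min.

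In WT the steps of Plk3 between successive times were -0.31, -0.24, -0.14 and -0.081, each smaller than the one before. In KO they were 0.13, -0.020, -0.088 and -0.092. The early step thus went down in WT and up in KO, and its difference between the lines was 0.43 ± 0.16 (SE), against 0.094 ± 0.17 for Plk2. Relative to 0 min, 80.9%, 68.3%, 62.1% and 58.6% of the Plk3 signal remained in WT and 109.1%, 107.6%, 101.2% and 95% in KO. Over 30 to 120 min Plk3 changed by -0.46 in WT and -0.20 in KO, and Plk2 by -1.84 and -1.10.

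**Figure D2:**
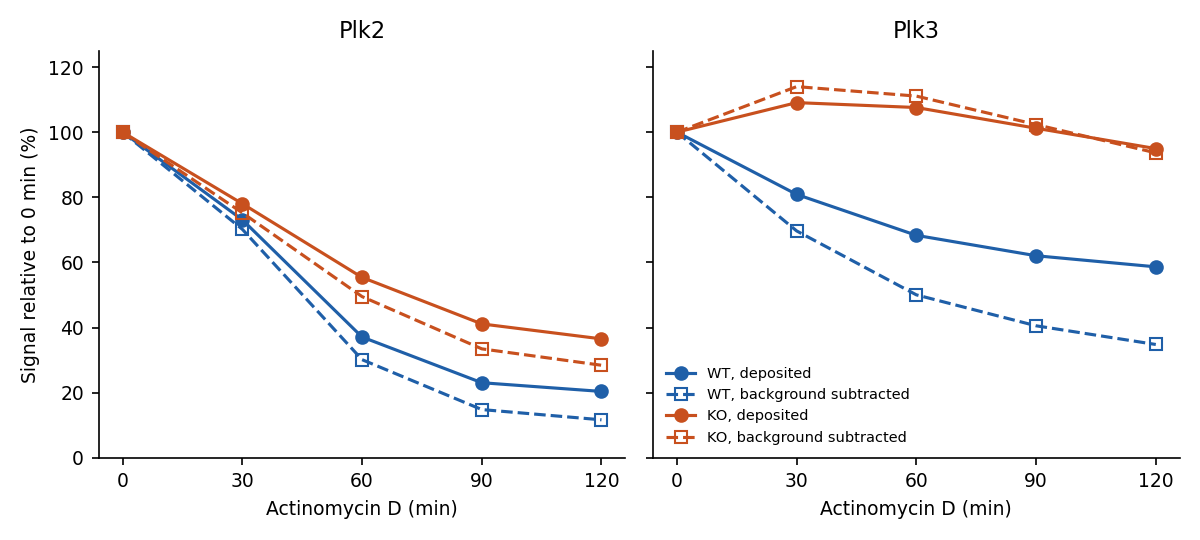
Signal relative to the mean at 0 min of the same line (vertical axis, %) against time in actinomycin D (horizontal axis, min) for Plk2 and Plk3 in WT and KO, as deposited and after subtraction of a background. At 120 min 20.4% of Plk2 remained in WT and 36.5% in KO as deposited, against 11.7% and 28.4% after subtraction; for Plk3 these were 58.6% and 95%, against 34.8% and 93.6%.

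The slope of Plk3 was -0.38 ± 0.048 log2 per h (SE) in WT, a halving in 156.1 min, and that in KO was -0.059 ± 0.050, which is too close to 0 for a halving time. The difference of the slopes was 0.33 ± 0.070, and was 0.17 without the arrays at 0 min and 0.65 with only those at 0, 30 and 60 min. By experiment the WT slopes were -0.39, -0.52, -0.25, -0.39 and -0.37, and the KO slopes 0.0018, -0.14, 0.10, -0.13 and -0.068. All 5 WT slopes were below 0, whereas the KO slopes lay on both sides of it. The differences were 0.39, 0.38, 0.35, 0.26 and 0.30, an SD of 0.055 over the experiments against 0.18 for Plk2.

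**Figure D3:**
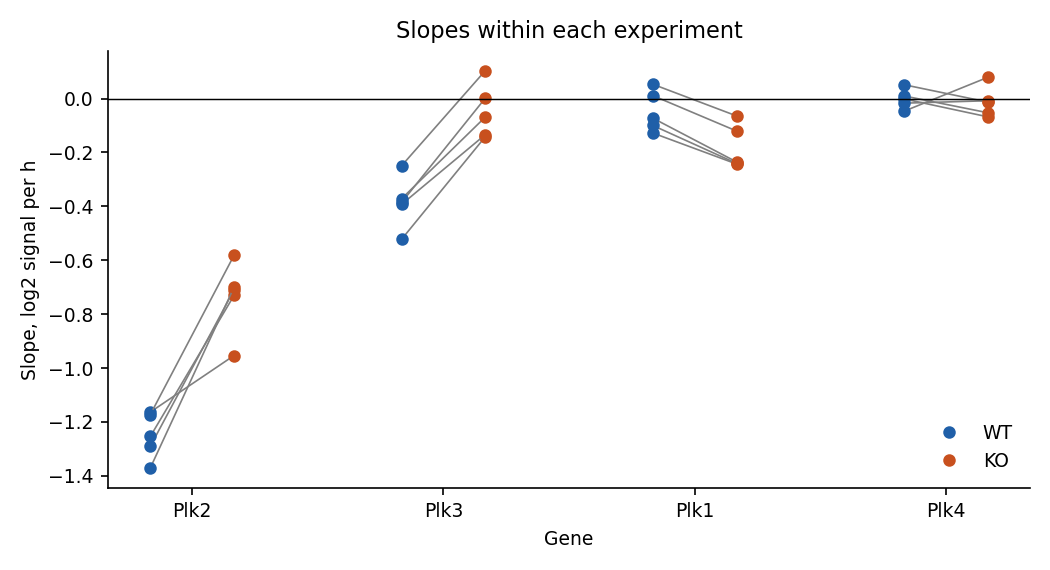
Slopes of log2 signal on time (vertical axis, log2 per h) fitted within each experiment for Plk2, Plk3 and the relatives Plk1 and Plk4 (horizontal axis), in WT and KO, with 1 point per experiment and a segment joining the WT and KO points of each experiment. For Plk2 the WT slopes ran from -1.37 to -1.16 and the KO slopes from -0.95 to -0.58, and for Plk3 from -0.52 to -0.25 and from -0.14 to 0.10; for Plk1 every KO slope was below its WT partner.

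Within experiments Plk3 at 0 min was 0.22, 0.23, -0.13 and 0.47 higher in KO in experiments 1 to 4, which puts 3 of 4 above 0. At 30 min KO minus WT was 0.60, 0.50, 0.69, 0.91 and 0.55, and at 60 min 0.84, 0.79, 0.74 and 0.81 in experiments 1, 2, 3 and 5. At 90 min it was 0.80, 0.92, 0.71, 1.25 and 0.94 and at 120 min 1.09, 0.98, 0.74, 0.95 and 0.82. The gap had opened to 0.65 ± 0.11 (SE, fitted over all arrays) by 30 min, and was 0.87 ± 0.11, 0.92 ± 0.11 and 0.91 ± 0.11 at the later times. The gap of Plk2 was still -0.13 ± 0.12 at 30 min, and was 0.35 ± 0.12, 0.61 ± 0.12 and 0.61 ± 0.12 at the later times. KO at 60 min lacks experiment 4, whose WT array was the lowest at that time for both genes. Over the experiments paired at 60 min the mean gap was smaller, 0.80 for Plk3 and 0.25 for Plk2.

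**Figure D4:**
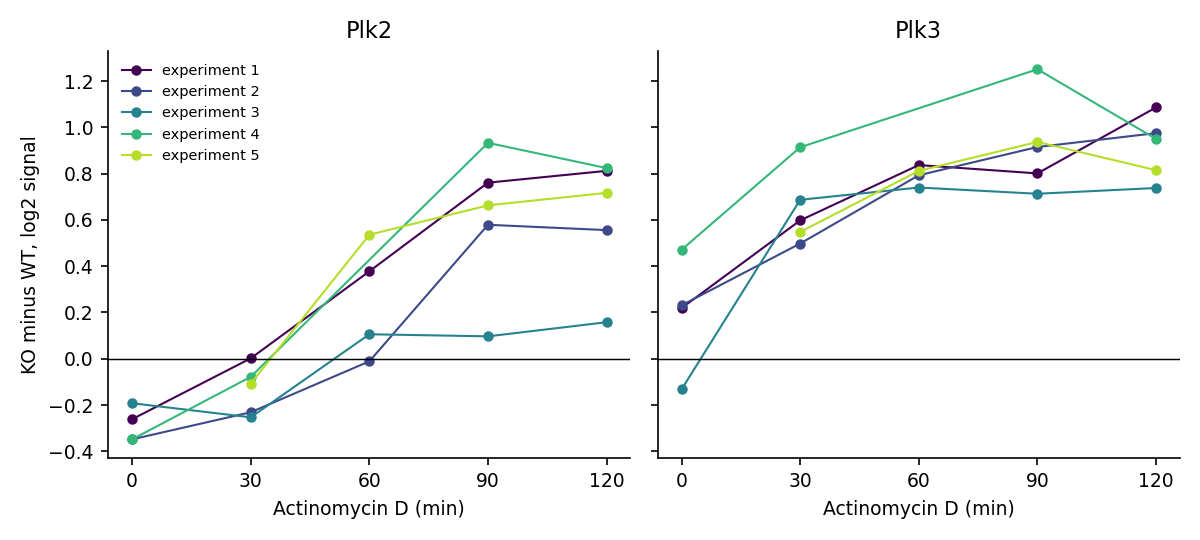
KO minus WT log2 signal within each experiment (vertical axis) against time in actinomycin D (horizontal axis, min) for Plk2 and Plk3, with 1 line per experiment. Plk2 was below 0 in 4 of 4 experiments at 0 min and above 0 in 5 of 5 at 90 and 120 min; Plk3 was above 0 in 3 of 4 at 0 min and in every experiment measured afterwards.

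By the rule used over all probe sets, slower in KO meant a slope difference above 0 and a WT slope below 0, both past a Benjamini-Hochberg adjusted p of 0.05 in limma. Both genes met it, as did 0.724% of the 27500 probe sets (199). Since the pair was chosen on these signals, this call and the others that follow for the pair are descriptions from which nothing is read. Every KO slope above every WT slope, which both genes showed, held for 1.89% of the probe sets. Both were also called higher in KO at 120 min, where 18.7% of the probe sets were, and at 0 min, where 13.4% were higher and 11.9% lower, neither was called without the block and Plk2 was called lower with it. Both fell in WT (14.0% of all), and Plk2 alone of the pair fell in KO (10.6%). The call of Plk3 as slower ended without replicate 1, and the calls of both ended without the arrays at 0 min, with only those at 0, 30 and 60 min, and in experiments 4 and 5 alone. Plk3 was called higher in KO at 0 min without replicate 3. In experiments 4 and 5 alone its KO minus WT difference at 0 min was 0.45, with experiment 4 the only KO array at that time.

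The compression at the floor bears on how much of each fall is seen. With the 5th percentile of each array subtracted on the linear scale, 70.2%, 30.1%, 14.8% and 11.7% of Plk2 remained in WT at 30 to 120 min and 75.2%, 49.5%, 33.5% and 28.4% in KO. The halving times of Plk2 were then 35.5 min in WT and 62.5 min in KO. Plk3, which lies nearer to the floor, then kept 69.7%, 50.0%, 40.5% and 34.8% in WT, with a halving in 78.4 min, and 114.0%, 111.1%, 102.3% and 93.6% in KO. The slope difference rose to 0.73 ± 0.12 for Plk2 and 0.69 ± 0.12 for Plk3 (SE), so the larger value of Plk2 on the deposited scale was nearly matched by Plk3 after subtraction.

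The second Plk2 probe set, 1443780_at, stayed at the floor. Its group means ran from 7.54 to 7.59, below the 5th percentile of every array, and showed no fall in either line. The Plk2 values therefore rest on 1 probe set, as those of Plk3 do.

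Among the relatives, Plk1, which drives mitotic entry and spindle assembly, stayed close to the array medians. At 0 min its WT mean was 8.78 ± 0.13 (SD, n = 5) and its KO mean 8.97 ± 0.18 (SD, n = 4), and 8.70 ± 0.085 and 8.66 ± 0.052 at 120 min (SD, n = 5). Plk1 fell by 0.31 in KO (limma, adjusted p = 0.00121), while its change in WT was -0.074 (limma, adjusted p = 0.457). Its slope difference was -0.12, the opposite sign to Plk2 and Plk3 (limma, adjusted p = 0.336, or 0.069 with the experiment as a block). Within experiments it lay between -0.16 and -0.11, below 0 in 5 of 5. At 0 min Plk1 was higher in KO by 0.19 (limma, adjusted p = 0.0408), a call that ended without replicate 2 (0.0574), 3 (0.134) or 4 (0.242).

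Plk4, the kinase that starts centriole duplication, was not called for a change over 120 min in either line by its brightest probe set. Its brightest probe set, 1452115_a_at, was 8.75 ± 0.059 in WT and 8.88 ± 0.16 in KO at 0 min (SD, n = 5 and 4) and had a slope difference of 0.018 (limma, adjusted p = 0.951). At 0 min it was 0.12 higher in KO (limma, adjusted p = 0.36), or 0.16 with the experiment as a block (limma, adjusted p = 0.0243). At 120 min it was 0.19 higher (limma, adjusted p = 0.0775, or 0.00393 with the block). Another Plk4 probe set, 1419838_s_at, was 0.55 higher in KO at 0 min (limma, adjusted p = 0.0138) and 0.57 at 120 min (limma, adjusted p = 0.00613), and 1426580_at was 0.28 and 0.24 higher (limma, adjusted p = 0.0652 and 0.0823). Within experiments the slopes of 1419838_s_at lay between -0.17 and -0.0010 log2 per h in WT and between -0.23 and -0.049 in KO. Its mean went from 8.54 to 8.34 in WT and from 9.09 to 8.90 in KO between 0 and 120 min. Plk5, with group means between 8.28 and 8.45, did not pass the filter.

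The genes around the 2 kinases were described by lists. Among 15 tested genes of mitotic entry and Plk1 activation, 14 of centriole duplication and 13 reported substrates and partners of Plk2 and Plk3, 0 were called slower or faster in KO by limma. At an unadjusted p under 0.05, 1, 2 and 0 of them had a slope difference, against 9.43% of all 13018 genes. The median slope differences were 0.013, 0.021 and 0.028 log2 per h, against -0.0011 over all genes tested (131 slower, 40 faster). In WT 6, 6 and 4 of these genes fell and 0 rose, where 2136 of the 13018 genes fell and 1441 rose. In KO 3, 3 and 4 fell and 0, 2 and 2 rose, where 1596 of the 13018 genes fell and 1659 rose. Those that fell in both lines included 2 named here after their values were seen: Jun, a transcription factor reported as a substrate of Plk3, with changes of -2.12 in WT and -1.96 in KO, and Wee1, the kinase that restrains Cdk1, with -0.68 and -0.81 (limma, each with an adjusted p under the threshold).

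Of 19 tested p53 targets and stress genes, to which Plk2 and Plk3 are often counted, 2 were called slower and 0 faster, while 7 had a slope difference above 0 and 2 below 0 at an unadjusted p under 0.05, against 5.97% and 3.46% of all genes. The median slope difference was 0.036. Mdm2, the ubiquitin ligase that degrades p53, fell at -0.31 log2 per h in WT and at -0.14 in KO, a difference of 0.17 ± 0.029 (SE; limma, adjusted p = 0.000208, or 0.241 without the arrays at 0 min). Trp53inp1, a stress-induced partner of p53, had -0.48 and -0.27, a difference of 0.21 (limma, adjusted p = 0.0326), which ended without replicate 1 (0.247), 2 (0.547), 4 (0.21) or 5 (0.0995). The list was mostly lower in KO at the start. At 0 min 10 of 19 were lower and 1 higher, against 1696 and 2087 of all 13018 genes. At 120 min 7 were lower and 2 higher, against 1892 and 2864 of all genes.

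Among 30 other serum-induced immediate-early genes, 28 fell in WT and 28 in KO, against 2136 and 1596 of all 13018 genes tested. Their median change over 120 min was -1.70 in WT and -1.53 in KO, against 0.033 and 0.0066 over all genes. Plk2 changed by -2.29 in WT, more than that median, and by -1.45 in KO, a little less. Plk3, at -0.77 and -0.075, fell less than the median in both lines. In this list 3 genes were called slower and 2 faster in KO, against 131 and 40 of the 13018 genes. The median slope difference of the list was 0.059.

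The 3 slower immediate-early genes were Ier3, Mcl1 and Phlda1. Ier3, which acts in cell survival, had a WT slope of -1.27, close to that of Plk2, and a KO slope of -0.38 (difference 0.88 ± 0.092, SE; limma, adjusted p = 2.75e-09). Mcl1, an inhibitor of apoptosis, had -0.94 and -0.64 (difference 0.30; limma, adjusted p = 0.00734), a call that ended without replicate 1 (0.125) or 4 (0.0527). Phlda1 had -1.11 and -0.84 (difference 0.27; limma, adjusted p = 0.0216), which ended without replicate 1 (0.158), 4 (0.211) or 5 (0.108). The slope differences of Plk2 (0.49) and Plk3 (0.33) lay between those of Ier3 and Mcl1.

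The 2 faster ones went the other way and began higher in KO. Dusp1, a phosphatase that switches off MAP kinases, had a WT slope of -0.73 and a KO slope of -1.31 (limma, adjusted p = 0.0393), and the call ended without any 1 of the replicates (0.0656 to 0.204). Klf2, a transcription factor that falls outside the naming rule and was chosen after its values were seen, had -0.39 and -0.65 (limma, adjusted p = 0.0285), which ended without replicate 2 (0.062), 3 (0.0763), 4 (0.192) or 5 (0.0995). After background subtraction neither was called (limma, adjusted p = 0.785 for Dusp1 and 0.606 for Klf2). Without the arrays at 0 min Dusp1 kept its call, with a difference of -0.83 (limma, adjusted p = 0.00157), and Klf2 lost its call (limma, adjusted p = 0.16). At 0 min Dusp1 was 1.12 higher in KO (limma, adjusted p = 2.01e-12) and Klf2 0.58 higher (limma, adjusted p = 1.24e-05).

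**Figure D5:**
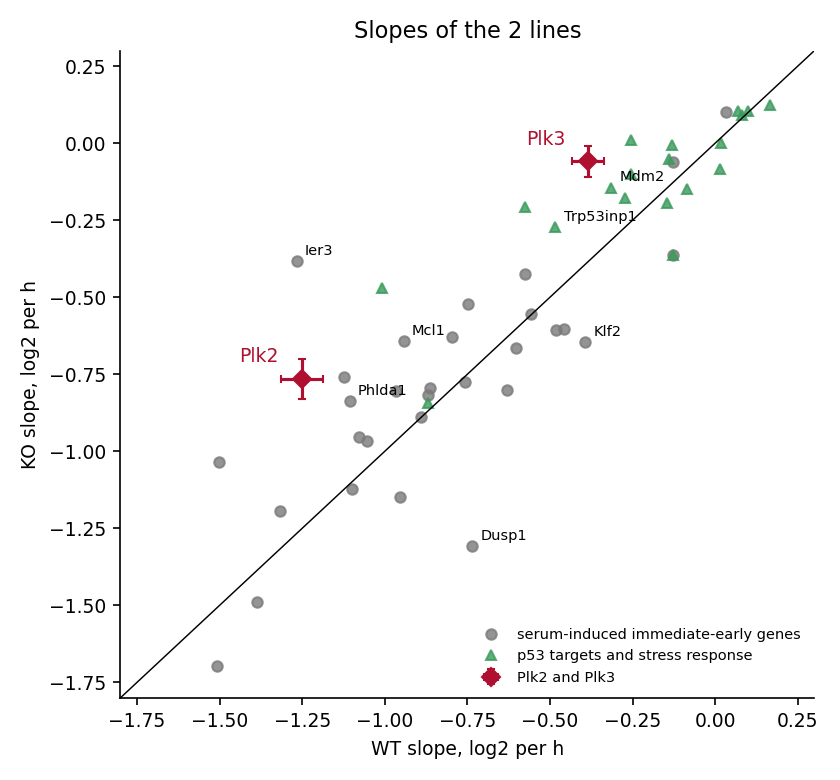
KO slope (vertical axis, log2 per h) against WT slope (horizontal axis, log2 per h) for Plk2 and Plk3 (bars are the SE), the immediate-early genes and the p53 targets and stress genes, with 1 point per gene and a diagonal of equal slopes. Plk2 (-1.25 in WT, -0.76 in KO) and Plk3 (-0.38, -0.059) lie above the diagonal, Ier3 (-1.27, -0.38) farther above it, and Dusp1 (-0.73, -1.31) below it.

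The Pearson r of Plk2 with Plk3 was 0.56 over the 10 group means, 0.978 over the 5 of WT and 0.443 over the 5 of KO, as a description, since the points share arrays and scaling. Among 462 genes whose group means spanned at least 1 log2 unit, those most like Plk2 were Tgif1, a repressor in TGF-beta signalling (r = 0.992), the acetyltransferase gene Ep300 (0.988), the Egr corepressor gene Nab2 (0.985), Zfp644 (0.985) and the kinase gene Pim3 (0.984). Tgif1 ran from 10.92 to 9.28 in WT and from 10.86 to 9.66 in KO between 0 and 120 min, so like Plk2 it began close together and ended higher in KO. As Tgif1 was picked for its likeness over these means, that course follows from the choice.

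The genes most like Plk3 were the receptor tyrosine kinase gene Epha2 (r = 0.991), the cytokine genes Lif (0.979) and Clcf1 (0.977), Akap13 (0.964), which encodes an anchoring protein, and Mllt11 (0.959). Epha2 went from 10.34 to 9.59 in WT between 0 and 120 min and was 10.82 and 10.62 in KO. Lif went from 10.67 to 9.88 in WT and from 11.48 to 11.15 in KO. In these genes, as in Plk3, the KO means lay above the WT means at both ends of the time course. They were picked for their likeness over the same group means, so the shared course follows from the choice.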

How the data were processed

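The deposited values are log2 signals per probe set and array of 48 Affymetrix mouse arrays, per the labels. The authors' probe summary, background correction and normalisation are not stated in the labels, and base 2 was taken from the range of the values, which reach 13.43. The deposited scaling was kept. Of 45101 probe sets, 64 controls were left out and 27500 tested. Gene names came from the platform annotation, and the probe set with the highest mean stood for a gene in the lists.

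limma 3.58.1 (R 4.3.3, version 1.17.8 of data.table; trended, robust empirical Bayes) fitted an intercept and slope per line on hours, and separately a mean per group, over all arrays. Tests were two-sided, with Benjamini-Hochberg adjustment over the 27500 probe sets. The procedure was also run on simulated data with noise independent between arrays. That run does not check the fit where arrays of an experiment deviate together. Halving times are 60 min divided by the fall in log2 per h. The alternative background subtracts each array's 5th percentile, with a floor of 16 on the linear scale.

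The members and the gene lists were chosen with earlier results of these data known. Named genes were the polo-like kinases, Zfp36, up to 4 called members of each list by size, and the 5 most alike patterns. Deviations of WT and KO arrays of the same experiment number had r between 0.12 and 0.604, against -0.576 to 0.451 for different numbers. WT 3 was closer to KO 2 (0.451) than to KO 3 (0.12), and WT 4 to KO 5 (0.342) than to KO 4 (0.327). Deviations from a group mean cancel within the group, which lowers r between different numbers. These r therefore do not pair the samples by themselves. The pairing rests on the series text, which states that both lines were run together in each experiment. The number of arrays limits the precision.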

Additional observations from a re-analysis of the deposited data

Results flagged for a closer look

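Sets of 4 or 5 values were examined for Plk1 to Plk4: arrays of a group, slopes by experiment and slope differences. Of 78 such sets, 6 held a value set apart from the rest, where chance gives about 1 in 20. All 6 were single arrays within a group. For Plk2 these were KO at 30 min in experiment 5, at 10.55 against 10.91 to 10.93 in the others, and KO at 60 min in experiment 1, at 10.65 against 10.23 to 10.28. For Plk3 it was WT at 0 min in experiment 2, at 9.80 against 9.43 to 9.53. For Plk1 they were KO at 120 min in experiment 2, at 8.57, and WT at 60 min in experiment 2, at 8.55. For Plk4 (1426580_at) it was KO at 60 min in experiment 5, at 9.06.

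Among the listed genes, 7 had a fall that differed between the lines by the test of the slope difference in limma. The differences, KO minus WT in log2 per h, were 0.88 for Ier3, 0.30 for Mcl1, 0.27 for Phlda1, 0.21 for Trp53inp1, 0.17 for Mdm2, -0.25 for Klf2 and -0.57 for Dusp1. The causes were not tested.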

How the results depend on the processing

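With an array background subtracted, the slope difference became 0.73 for Plk2 and 0.69 for Plk3, the WT change -3.10 and -1.52, the difference at 120 min 1.03 and 1.74, and the Plk2 change in KO -1.81; subtraction stretches low signals by construction. The other Plk2 probe set, below the floor, gave a slope difference of 0.0071, slopes of 0.0087 in WT and 0.016 in KO, changes of 0.036 in WT and 0.020 in KO, and 0.0060 at 0 min and -0.0096 at 120 min. In experiments 4 and 5 alone the Plk2 difference at 0 min was -0.15 and the Plk3 slope difference was 0.25. KO at 0 min lacks experiment 5, so the -0.15 sets KO experiment 4 against WT experiments 4 and 5. Within experiment 4 the Plk2 difference at 0 min was -0.35. Without the arrays at 0 min the Plk3 slope difference was 0.17, and with only those at 0, 30 and 60 min, an alternative chosen after seeing the data, it was 0.65. The causes were not tested. Leaving out 1 replicate at a time moved the slope difference between 0.44 and 0.56 for Plk2 and between 0.31 and 0.35 for Plk3. Of the listed genes 7 were called for the slope difference, 2 to 7 without a replicate, 4 after background subtraction, 3 in experiments 1 to 3 and 2 without the arrays at 0 min. Over all probe sets 199 were called slower and 63 faster, against 365 and 96 with the experiment as a block, 165 and 19 after background subtraction, 80 and 42 without replicate 1, 106 and 40 without 2, 261 and 50 without 3, 102 and 43 without 4, and 137 and 46 without 5. With the block the slope difference was 0.50 for Plk2 and 0.34 for Plk3, and 9 listed genes were called: the same 7, Cdkn1a as slower (0.27; limma, adjusted p = 0.0294, or 0.0753 without the block) and Atf3 as faster (-0.21; limma, adjusted p = 0.038, or 0.436). The block also changed the calls of Plk2 at 0 min and of Plk4 at 0 and 120 min. It changed no other slope call of a listed gene. No other call of the polo-like kinases changed, each by its brightest probe set. Calls of the listed genes with only the arrays at 0, 30 and 60 min were not reported. Ier3 kept its call in all the other alternatives. The other 6 each lost theirs at least once in experiments 1 to 3, experiments 4 and 5, without 0 min or after background subtraction. The array's floor limits what low signals show.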
